A study of Homo sapiens with 60 samples.

Results

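Wortmannin, a fungal metabolite that binds covalently to phosphatidylinositol 3-kinases (PI3K), was the positive control in a series on herbal extracts in SW1783 cells, an established human astrocytoma line. The comparison described here is that of the 3 libraries labelled wortmannin 10 µM with the 3 libraries labelled 0.1% DMSO, the vehicle, over every gene of the count table. These are 6 of the 60 libraries of the series, and 17792 of 60675 gene identifiers passed the expression filter and were tested. Both groups are the same unmodified line, kept in L-15 medium with 10% fetal bovine serum and collected 24 h after treatment. The labels give no DMSO content for the wortmannin cultures, and the series description gives 2% DMSO for the vehicle where the sample labels give 0.1%. The other 54 libraries come from cells given water extracts of 6 herbs at 3 doses. Of these, 15 from 5 extracts at their lowest dose (20 µg/mL) served as a second reference. The 5 are the extracts of Liriopis, Schisandrae, Longan, Zizyphi and Aucklandiae, and the labels give no DMSO content for them.

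Class I PI3Ks are recruited by receptor tyrosine kinases and make the membrane lipid PIP3, which brings AKT to the membrane. Active AKT keeps FOXO transcription factors out of the nucleus and feeds mTORC1, which favours ribosome and nucleotide synthesis and holds the lysosomal regulator TFEB in the cytoplasm. The class III enzyme, VPS34, makes PI3P on endosomes and autophagosomes, and wortmannin at high concentration also acts on related protein kinases such as DNA-PK and mTOR. Astrocytic tumours often carry lesions of this pathway. All values below are transcript levels, which do not measure kinase activity.

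The vehicle libraries held 26.4 M to 28.5 M expected counts and the wortmannin libraries 27.4 M to 32.7 M, and intervals from such totals cover counting error only. Genes of the mitochondrial genome took 10.4% ± 0.123 (SD, n = 3) of counts in vehicle and 11.1% ± 0.411 under wortmannin, a difference whose exact two-sided permutation p of 0.1 is the smallest that 3 against 3 allows. By the first part of the library names, which no label explains, the vehicle libraries form one set (A1) and the wortmannin libraries another (1). An effect of the drug and a difference between these sets cannot be told apart. Whether the 3 libraries of each group come from separate cultures is not labelled, so p-values measure only the spread between libraries. In bulk RNA, fewer cells with a transcript and less transcript per cell cannot be told apart either.

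Many transcripts differed by small amounts between wortmannin and vehicle, and the larger differences were upward. In edgeR's quasi-likelihood fit, 2129 genes passed the threshold for a call, a Benjamini-Hochberg adjusted p of less than 0.05. These were 12% of those tested, and all adjusted p-values below come from that fit. Of these, 969 were higher (5.45%) and 1160 lower (6.52%). The median called rise was 1.31-fold and the median called fall 1.21-fold. At least a 2-fold change was found for 73 genes (0.41%), of which 62 were higher and 11 lower. That count of 73 was 31 with DESeq2 and 117 without Liriopis_high replicate 1, a library of another group. All 3 wortmannin libraries lay beyond all 3 vehicle libraries for 37.8% of tested genes. Among called genes, 274 rises (1.54% of those tested) were above, and 225 falls (1.26%) below, the other 57 libraries of the series. The called rises had a median vehicle level of 16.6 CPM, counts scaled to a common library total, against 54.2 CPM for the called falls. Liriopis_high replicate 1 widens the spread that all groups share, and without it 4108 genes were called.

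**Figure D1:**
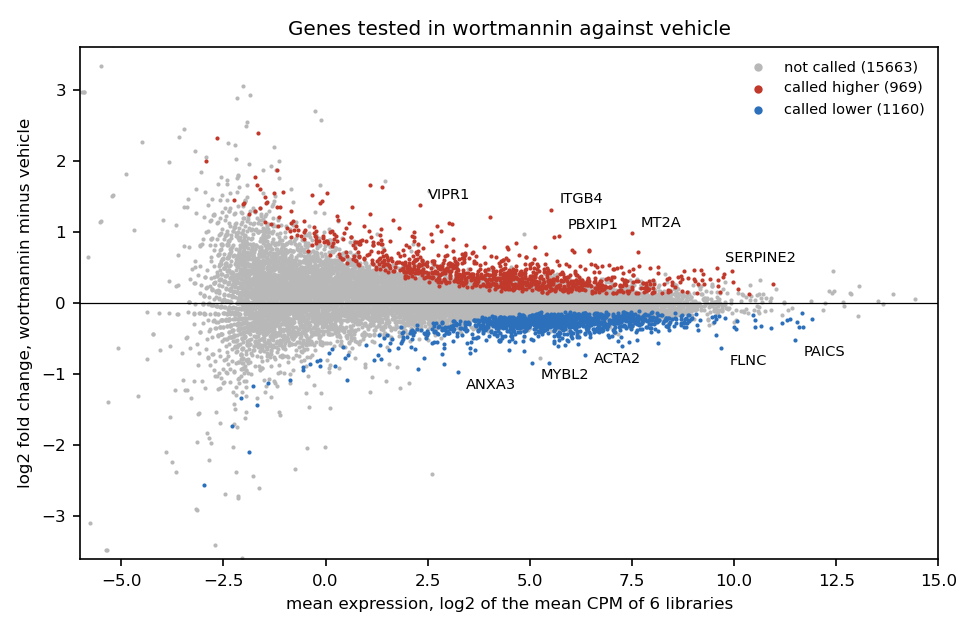
Each point is 1 of the 17792 tested genes, with the log2 of its mean CPM over the 6 libraries on the x axis and its log2 fold change, wortmannin minus vehicle, on the y axis. Called rises (red, 969) reach larger sizes at low levels and called falls (blue, 1160) sit mostly between 0 and -1; 56 genes, 3 of them called, lie outside the axes.

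The second reference bears on the vehicle side of the comparison. Against the mean of the 15 low-dose extract libraries, which belong to 3 other name sets, wortmannin gave 3901 calls (21.9%), 1981 higher (11.1%) and 1920 lower (10.8%), and 95 were at least 2-fold (0.534%). Without Wortmannin replicate 1 this count was 2540, and without Liriopis_high replicate 1 it was 6095. Vehicle against the same 15 libraries gave 0 calls in edgeR (0.0%), with 664 genes at an unadjusted p under 0.05 (3.73%) and 2 calls in DESeq2; without Liriopis_high replicate 1 there were 8. Of the 2129 genes called against vehicle, 1991 (11.2% of those tested) were also called against the low-dose libraries in the same direction. All 3 wortmannin libraries lay above all 15 low-dose libraries for 737 of the 969 called rises (4.14% of those tested) and below all 15 for 933 of the 1160 called falls (5.24%), where the same position held for 8.33% and 9.45% of all tested genes. These 2 comparisons share the wortmannin libraries.

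The share of PI3K lipid kinase transcripts that were called was near that of all tested genes. Among 13 tested lipid kinase genes of the PI3K family, 1 was called higher and 1 lower, against 5.45% and 6.52% of all tested genes. Without Liriopis_high replicate 1 the counts were 2 and 2. The median log2 fold change was -0.04, beside 0.01 over all tested genes. PIK3CA, the class I catalytic subunit p110 alpha, was at 62.5, 70.6 and 72.1 CPM in vehicle and at 73.8, 64.3 and 68.5 CPM under wortmannin, so the groups overlapped (log2 fold change 0.01, SE 0.10, adjusted p = 0.97). Per kilobase of exon, vehicle cells held 7.21 CPM of PIK3CA, 4.21 of PIK3CB, 3.45 of PIK3CD and 1.90 of PIK3C3. The haematopoietic class I members PIK3CG and PIK3R5 and the liver-type PIK3C2G had at most 2 counts in any of the 6 libraries, and PIK3R6 had 0.

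PIK3C3 encodes VPS34 (chromosome 18, 41955206 to 42087830, plus strand, GRCh38). It was at 28.1, 29.1 and 29.2 CPM in vehicle and at 35.3, 34.4 and 34.7 CPM under wortmannin. The 3 wortmannin libraries were also above the other 57 libraries of the series. The log2 fold change was 0.27 (SE 0.08, adjusted p = 0.017), and the call was lost without Vehicle replicate 1 or Wortmannin replicate 1. PI4KB, a phosphatidylinositol 4-kinase, was the member called lower (log2 fold change -0.16, SE 0.04, adjusted p = 0.0053).

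None of the 6 PI3K-related protein kinase genes was called, or 2, both lower, without Liriopis_high replicate 1. The log2 fold changes were 0.16 for ATM, -0.15 for ATR, -0.19 for MTOR, -0.23 for SMG1 and -0.30 for PRKDC, the DNA-PK catalytic subunit, with SEs from 0.14 to 0.21. The vehicle values of PRKDC alone ran from 658 to 809 CPM. Regulatory subunits of class I PI3K were likewise not called (PIK3R1 -0.12, PIK3R2 0.12, PIK3R3 -0.07).

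A natural brake on PI3K stood out against these small changes. In its list of lipid phosphatases and brakes 2 of 17 were higher and 2 lower, against 5.45% and 6.52% of all tested genes. The falls numbered 1 without Vehicle replicate 2 and 4 without Liriopis_high replicate 1. PIK3IP1 encodes a membrane protein that binds p110 and restrains it (chromosome 22, 31281593 to 31292534, minus strand). It was at 2.19, 2.05 and 1.51 CPM in vehicle and at 4.57, 4.21 and 4.16 CPM under wortmannin, and its highest low-dose library was at 2.06 CPM. Its rise was 2.25-fold (log2 1.17, SE 0.21, adjusted p = 7.4e-05). The wortmannin libraries were above all other 57. INPP5K, an inositol 5-phosphatase, rose by 0.31 (SE 0.06, adjusted p = 0.00051). TRIB3, a pseudokinase that binds AKT, fell from 25.8 ± 1.14 to 19.9 ± 1.19 CPM (SD, n = 3 each; log2 -0.37, adjusted p = 0.0025).

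Of 30 tested AKT and mTOR genes, 2 were called higher and 4 lower, against 5.45% and 6.52% of all tested genes. Without Liriopis_high replicate 1 the counts were 4 and 5. DEPTOR, an inhibitory partner of mTOR, was at 1.31, 1.04 and 1.27 CPM in vehicle and at 2.09, 1.85 and 2.24 CPM under wortmannin. That is a 1.70-fold rise (log2 0.77, SE 0.18, adjusted p = 0.0023). SGK1, a kinase related to AKT, rose from 69.8 ± 2.66 to 81.4 ± 0.527 CPM (log2 0.22, adjusted p = 0.0014). The falls held MAPKAP1, the SIN1 subunit of mTORC2 (log2 -0.22), RRAGC, a GTPase that brings mTORC1 to lysosomes (-0.30), and EIF4E, the cap-binding protein (-0.25). AKT1 made the fourth (-0.12, adjusted p = 0.038), a call lost without any one of the 6 libraries, while AKT2 (-0.05) was not called.

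**Figure D2:**
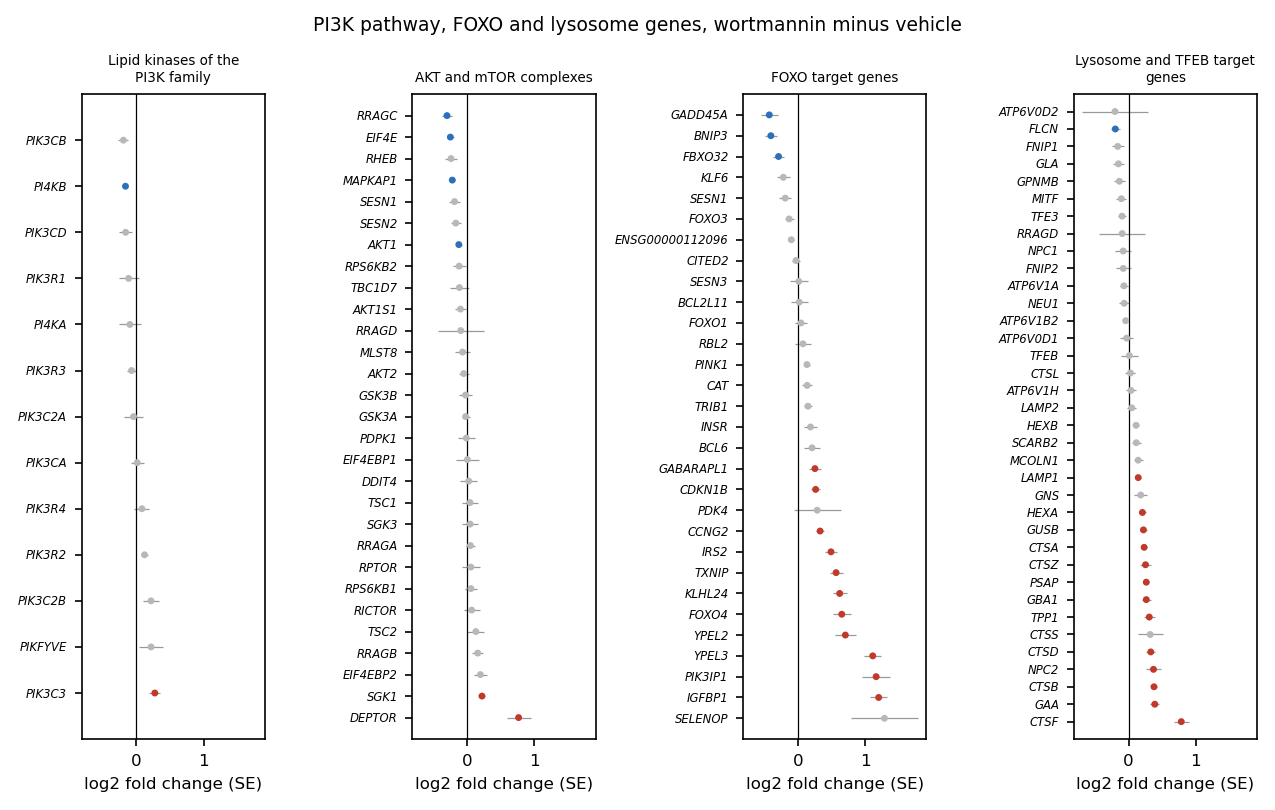
Log2 fold change, wortmannin minus vehicle, of the tested members of 4 gene lists, all but 1 of them drawn, with SE as bars; red points were called higher, blue lower and grey not called. The kinases stay close to 0, while PIK3IP1, IGFBP1 and YPEL3 among the FOXO targets and CTSF among the lysosomal genes reach the right side of their panels.

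FOXO factors, released when AKT is inactive, switch on genes of insulin sensitivity, cell cycle exit and protein turnover. Of 30 tested genes in the FOXO list, 11 were called higher and 3 lower (median log2 0.17), against 5.45% and 6.52% of all tested genes. With 1 library left out in turn, 10 or 11 were higher. To show where such letters lie, the promoters of 2 of the risers are printed as the 150 bases before the RefSeq start site (GRCh38.p14, 5′ to 3′ on the gene's strand, chr3:183635473-183635622 on the plus strand for KLHL24 and chr1:145996580-145996729 on the minus strand for TXNIP). Capitals mark the insulin response letters CAAAACA, present in KLHL24 as their reverse complement, and the forkhead letters GTAAACA in TXNIP.
KLHL24: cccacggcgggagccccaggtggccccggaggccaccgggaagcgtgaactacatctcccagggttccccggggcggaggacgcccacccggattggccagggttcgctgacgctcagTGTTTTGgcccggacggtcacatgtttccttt
TXNIP: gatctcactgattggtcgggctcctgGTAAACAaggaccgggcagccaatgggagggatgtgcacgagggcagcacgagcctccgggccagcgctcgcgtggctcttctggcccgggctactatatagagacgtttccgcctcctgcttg

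Searched on both strands in 250 bases before the start, GTAAACA was in 2.00% and CAAAACA in 2.77% of the 11985 promoters of tested genes that RefSeq's table holds. Among the 714 promoters of called rises the shares were 2.52% and 4.62%, and among the 957 of called falls 2.40% and 2.51%. Of the 24 promoters of the FOXO list, 3 held each motif. A match describes letters and is not a bound site.

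IGFBP1, a secreted binding protein of insulin-like growth factors that insulin represses through FOXO1 in liver, has its gene on chromosome 7 (45888357 to 45893668, plus strand). Its levels were 10.4, 8.78 and 10.2 CPM in vehicle and 24.1, 21.7 and 21.9 CPM under wortmannin, while the low-dose libraries ran from 7.94 to 11.5 CPM. At 2.31-fold it had the largest fold among the called members of the FOXO list. YPEL3, a small protein linked to growth arrest, was at 5.37, 5.87 and 4.83 CPM in vehicle and at 11.8, 10.7 and 12.3 CPM under wortmannin (log2 1.12, SE 0.13, adjusted p = 1.3e-08). Its relative YPEL2 rose 1.63-fold. In both genes the wortmannin libraries were above the other 57 libraries.

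KLHL24, a ubiquitin ligase adaptor whose promoter is shown above, was at 24.8, 27.4 and 29.2 CPM in vehicle and at 47.9, 38.1 and 39.3 CPM under wortmannin. Wortmannin replicate 1 was the highest, and the groups did not overlap (log2 0.62, SE 0.10, adjusted p = 1.9e-05). TXNIP, which restrains glucose uptake, rose from 10.1 ± 0.265 to 14.9 ± 1.3 CPM (log2 0.57, adjusted p = 3.3e-05). FOXO4 itself rose 1.57-fold (log2 0.65, adjusted p = 0.00035), and IRS2, the insulin receptor substrate, rose 1.41-fold (log2 0.49, adjusted p = 0.00014). CCNG2, an unconventional cyclin of arrested cells, rose by 0.33, and CDKN1B, the inhibitor p27, by 0.26.

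Members that went the other way were BNIP3, a mitophagy receptor (log2 -0.40, adjusted p = 0.00098), FBXO32, a ubiquitin ligase of muscle wasting (-0.29, adjusted p = 0.0076), and GADD45A, a stress-induced gene (-0.43, adjusted p = 0.018). The GADD45A call was lost without Vehicle replicate 1, Vehicle replicate 2 or Wortmannin replicate 1. BNIP3 also belongs to the targets of hypoxia-inducible factor.

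Of 18 tested receptors and adaptors, 3 were called higher and 0 lower (median log2 0.15), against 5.45% and 6.52% of all tested genes, and without Liriopis_high replicate 1 the counts were 8 and 1. PDGFRA, the PDGF receptor alpha of glial progenitors, was at 19.9, 19.0 and 21.2 CPM in vehicle and at 30.6, 24.9 and 28.0 CPM under wortmannin. The groups were separate, and the wortmannin values exceeded those of all other 57 libraries (log2 0.48, SE 0.12, adjusted p = 0.0032). In the insulin-like growth factor list 5 of 16 were called higher and 0 lower (median 0.28), but 2 or 3 when any one of the 6 libraries was left out, and without Liriopis_high replicate 1 there were 9 rises and 2 falls. Its member STC1, a secreted glycoprotein, rose from 411 ± 21.3 to 526 ± 26.4 CPM (log2 0.36, adjusted p = 1.1e-06).

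Of 36 tested members of the lysosome and TFEB list, 13 were called higher (10 to 13 with 1 library left out) and 1 lower (2 without Liriopis_high replicate 1), against 5.45% and 6.52% of all tested genes. The other 22 were not called, and the median log2 fold change was 0.08. The summed level of the list went from 5259 to 5394 CPM in vehicle to 5912 to 6092 CPM under wortmannin. TFEB and its relatives bind the E box letters CACGTG, which 8.70% of all tested promoters hold on either strand in 250 bases, against 9 of the 23 promoters available for this list. Those of GAA (chr17:80101431-80101580, plus strand) and CTSF (chr11:66568607-66568756, minus strand) are shown as 150 bases before the start, with CACGTG in capitals, because each carries it at 2 places.
GAA: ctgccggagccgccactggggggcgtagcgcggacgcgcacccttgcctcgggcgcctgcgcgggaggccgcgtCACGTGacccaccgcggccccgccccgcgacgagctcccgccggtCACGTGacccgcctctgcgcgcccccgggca
CTSF: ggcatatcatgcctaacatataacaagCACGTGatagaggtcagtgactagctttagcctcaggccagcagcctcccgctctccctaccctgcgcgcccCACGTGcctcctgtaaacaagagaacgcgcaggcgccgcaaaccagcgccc

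Counted back from the start site, with -1 as the base just before it, CACGTG begins at -76 and -31 in GAA and at -123 and -51 in CTSF. Among called rises as a whole the share of promoters with CACGTG was 9.52%, and among called falls 9.61%, both close to the 8.70% of all tested promoters. The share in the lysosome list is that of a list picked for TFEB targets, over called and uncalled members alike. Whether it differs between called and uncalled members was not tested.

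CTSF, the cysteine protease cathepsin F, was at 16.4, 15.4 and 15.8 CPM in vehicle and at 27.9, 27.2 and 26.9 CPM under wortmannin, above all 15 low-dose libraries. It rose 1.72-fold (log2 0.79, SE 0.11, adjusted p = 1.7e-06). GAA, the acid glucosidase that degrades glycogen, was at 57.6, 53.8 and 53.3 CPM in vehicle and at 68.9, 73.8 and 73.4 CPM under wortmannin (log2 0.39, SE 0.07, adjusted p = 6e-05). The more abundant proteases rose as well. CTSB, cathepsin B, went from 359 ± 9.84 to 466 ± 12.9 CPM (log2 0.38, adjusted p = 2.9e-07), and CTSD, cathepsin D, from 292 ± 16.5 to 368 ± 3.42 CPM (log2 0.33, adjusted p = 0.00031). PSAP, the precursor of the saposins that help degrade sphingolipids, rose by 0.26 and TPP1, a tripeptidyl peptidase, by 0.31. FLCN, which acts on the Rag GTPases, was the member called lower (-0.20), a call lost without any one of Vehicle replicates 1 and 3 or Wortmannin replicates 1, 2 and 3.

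Autophagy and endosome genes, which act where VPS34 does, held fewer calls than the lysosome list. Of 30 autophagy genes and class III partners, 5 were called higher and 0 lower, against 5.45% and 6.52% of all tested genes. The count of rises was 2 without the expression filter, Vehicle replicate 1, Vehicle replicate 2, Wortmannin replicate 1 or Wortmannin replicate 3 and 3 without Wortmannin replicate 2, and without Liriopis_high replicate 1 there were 10 rises and 3 falls. NBR1, a cargo receptor of autophagosomes, was at 114, 120 and 117 CPM in vehicle and at 155, 145 and 153 CPM under wortmannin. The groups were well apart (log2 0.37, SE 0.07, adjusted p = 0.00017). In the endosome sorting list 1 of 25 was called in each direction, a share under the 5.45% and 6.52% of all tested genes. The rise was lost without Vehicle replicate 1, Vehicle replicate 2, Wortmannin replicate 1 or Wortmannin replicate 3, the fall without any one library except Wortmannin replicate 1, and there were 2 rises and 5 falls without Liriopis_high replicate 1.

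Most members of the mitotic and replication lists were called lower. Of 28 mitotic kinases, cyclins and regulators of the anaphase-promoting complex, 19 were called lower, and the same held for 21 of 31 kinetochore and centromere genes, 24 of 32 spindle, kinesin and cytokinesis genes and 22 of 36 genes of origin licensing and the replication fork. No member of these 4 lists was called higher. The median log2 fold changes of the lists were -0.28, -0.32, -0.27 and -0.25, beside 0.01 over all tested genes and a background of 6.52% called lower. With 1 of the 6 libraries left out, the called falls were 14 to 17, 12 to 16, 18 to 23 and 15 to 19, where the 12 is the count without Wortmannin replicate 1.

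**Figure D3:**
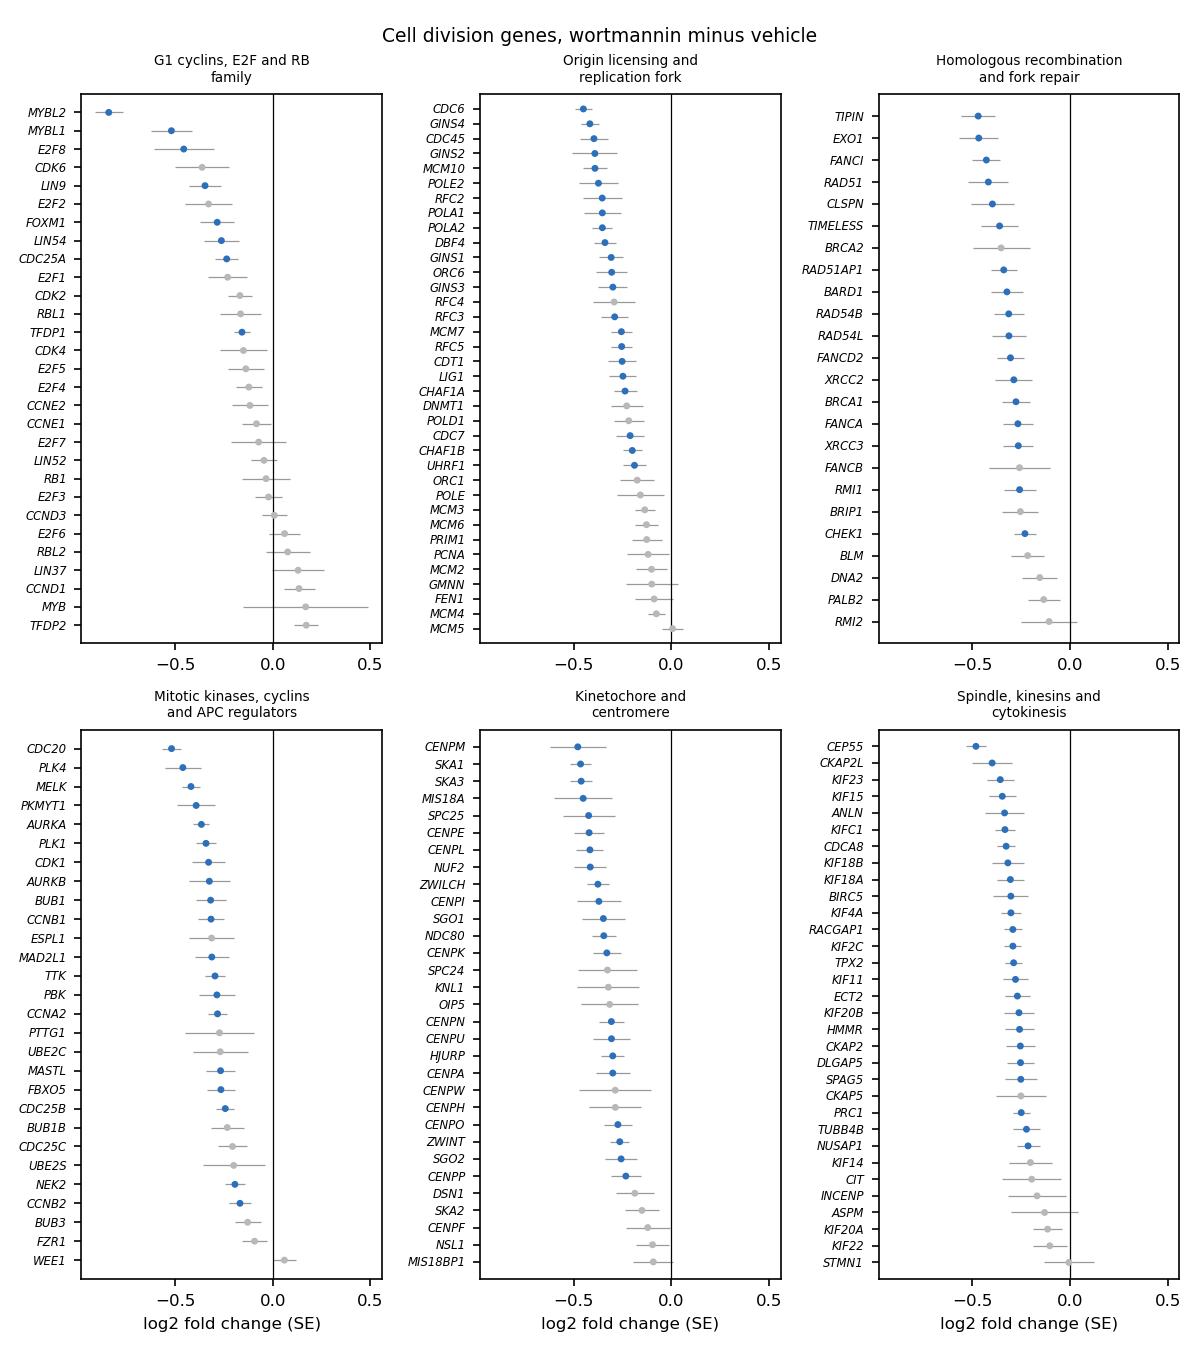
Log2 fold change, wortmannin minus vehicle, with SE as bars, for every tested member of 6 cell division lists; blue points were called lower, grey points were not called and none was called higher. Nearly all points lie left of 0, most of them between 0 and -0.5, with MYBL2 at -0.84.

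Late cell cycle genes are known for a CCAAT box beside a CHR element, TTTGAA or TTCGAA, through which the DREAM complex acts, and replication genes for E2F sites. Letters of these kinds are in capitals in the promoters of 3 mitotic genes with CCAAT (either strand) and CHR, CDC20 (chr1:43358831-43358980), PLK1 (chr16:23678739-23678888) and KIF4A (chrX:70289954-70290103), and of 1 replication gene with the E2F letters TTTNNCGC, POLA2 (chr11:65261812-65261961). All are the 150 bases before the start, on the plus strand.
CDC20: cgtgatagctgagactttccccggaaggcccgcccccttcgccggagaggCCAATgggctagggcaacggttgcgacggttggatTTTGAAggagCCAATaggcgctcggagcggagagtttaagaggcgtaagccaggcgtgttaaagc
PLK1: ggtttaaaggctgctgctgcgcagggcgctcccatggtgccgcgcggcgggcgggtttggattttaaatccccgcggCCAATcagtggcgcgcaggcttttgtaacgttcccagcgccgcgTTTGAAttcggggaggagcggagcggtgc
KIF4A: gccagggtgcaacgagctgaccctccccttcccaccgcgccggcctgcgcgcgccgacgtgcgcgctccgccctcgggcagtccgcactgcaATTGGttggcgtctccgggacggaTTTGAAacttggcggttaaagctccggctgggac
POLA2: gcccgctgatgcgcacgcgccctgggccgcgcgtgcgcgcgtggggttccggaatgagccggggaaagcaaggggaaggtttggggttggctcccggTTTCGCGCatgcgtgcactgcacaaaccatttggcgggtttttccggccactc

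Over 250 bases and both strands, the CHR letters were in 19 of 29 spindle promoters, 8 of 21 mitotic kinase promoters, 9 of 18 condensation promoters and 4 of 25 kinetochore promoters, against 9.98% of all tested promoters. CCAAT was in 24, 13, 8 and 13 of the same promoters, against 34.9% of all. Outside cell division, CCAAT was in 16 of 19 unfolded protein response promoters, 17 of 25 sterol synthesis promoters and 2 of 13 hemidesmosome promoters. The E2F letters were in 14 of 33 promoters of the replication list, against 8.65% of all. They were in 5 of 25 kinetochore, 5 of 29 spindle, 1 of 21 mitotic kinase and 1 of 19 fork repair promoters, and in 5 of 16 promoters of receptors and adaptors. Across all called falls the shares were 13.9% for CHR, 40.5% for CCAAT and 11.4% for E2F, and across called rises 12.6%, 35.4% and 7.56%. In a window of 100 bases the CHR letters were in 5.64% of called falls, 2.66% of called rises and 2.80% of all tested promoters. No difference between these shares was tested.

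CDC20, the activator of the anaphase-promoting complex, was at 242, 231 and 225 CPM in vehicle and at 154, 164 and 170 CPM under wortmannin, below all 15 low-dose libraries (230 to 259 CPM), at an adjusted p of 1.5e-10. PLK1, the mitotic Polo kinase that wortmannin itself can bind, was at 151, 150 and 152 CPM in vehicle and at 112, 121 and 125 CPM under wortmannin. KIF4A, a chromosome-borne kinesin, fell from 99.4 ± 3.25 to 80.6 ± 1.56 CPM (log2 -0.30, SE 0.05, adjusted p = 2.8e-05). All 3 genes had fully separate groups.

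Other mitotic genes fell by similar amounts. CEP55, needed for abscission, was at 83.4, 88.2 and 86.0 CPM in vehicle and at 61.2, 60.1 and 63.2 CPM under wortmannin (log2 -0.48, SE 0.05, adjusted p = 9.7e-10). The Aurora kinase AURKA went from 117 ± 1.44 to 91.1 ± 1.62 CPM. In CEP55 and AURKA the wortmannin libraries were below all other 57 libraries of the series. MELK (-0.42), the kinetochore subunits SKA1 (-0.46) and NUF2 (-0.42), cyclin B1 (CCNB1, -0.32) and its kinase CDK1 (-0.33) were called in every one of the 14 alternative analyses.

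Among S phase genes, RRM2, the regulated subunit of ribonucleotide reductase, was at 172, 174 and 177 CPM in vehicle and at 124, 128 and 126 CPM under wortmannin. Its replicate spread was small beside the shift (log2 -0.48, SE 0.03, adjusted p = 2.5e-14). TYMS, thymidylate synthase, fell from 77.8 ± 2.4 to 60.9 ± 3.99 CPM. Both belong to the deoxynucleotide list, where 5 of 12 were lower, against 6.52% of all tested genes. The count was also 5 with any one of the 6 libraries left out. CDC6, the origin licensing factor, was at 81.7, 80.6 and 83.0 CPM in vehicle and at 60.3, 58.7 and 60.5 CPM under wortmannin, the lowest values of all 60 libraries. POLA2, a subunit of the primase complex, fell by 0.35 (SE 0.05, adjusted p = 2e-06), and GINS4, part of the replicative helicase, by 0.42.

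Among the subunits of the MCM helicase, MCM7 fell (log2 -0.26, adjusted p = 0.0011). MCM2 (-0.10), MCM3 (-0.14), MCM4 (-0.08), MCM5 (0.01) and MCM6 (-0.13) were not called, and whether they differ from MCM7 was not tested. Homologous recombination and fork repair genes were lower for 17 of 24 members (median log2 -0.30), against 6.52% of all tested genes. The falls numbered 12 to 15 with 1 library left out and 11 without the expression filter. They held FANCI of the Fanconi pathway (-0.43), the fork protection factor TIPIN (-0.47) and the exonuclease EXO1 (-0.47). In the chromosome condensation and cohesion list 9 of 22 were lower, and 16 without Liriopis_high replicate 1, with the condensin subunit NCAPH at -0.41 and the cohesion factor CDCA5 at -0.28.

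Upstream regulators split. MYBL2, the B-MYB factor that turns the DREAM partner MuvB into an activator of late cell cycle genes (chromosome 20, 43667019 to 43716496, plus strand), was at 42.8, 41.3 and 43.7 CPM in vehicle and at 20.9, 26.2 and 24.4 CPM under wortmannin. Every wortmannin library was below the lowest low-dose library, at 39.8 CPM. Its relative MYBL1 fell by 0.52 (SE 0.11, adjusted p = 0.00052) and the MuvB subunit LIN9 by 0.35 (SE 0.08, adjusted p = 0.0026). CCND1, cyclin D1, was not called (204 ± 17.5 and 224 ± 10.8 CPM, log2 0.13, adjusted p = 0.32), and neither was MYC (log2 -0.09, SE 0.05, adjusted p = 0.32).

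Of 29 G1 cyclin, E2F and RB family genes, 8 were lower and 0 higher, against 6.52% and 5.45% of all tested genes. There was 1 rise without Vehicle replicate 2. The count of falls was 3 without Vehicle replicate 3 or the expression filter, 5 without Vehicle replicate 2 or any one wortmannin library, and without Liriopis_high replicate 1 it was 14, beside 2 rises. The inhibitors of cyclin-dependent kinases went up where they moved at all, except CDKN3. CDKN1A, the inhibitor p21, was at 21.5, 19.7 and 20.9 CPM in vehicle and at 24.8, 26.9 and 27.1 CPM under wortmannin (log2 0.35, SE 0.08, adjusted p = 0.0037). CDKN1B was at 20.4, 22.6 and 21.1 CPM and then at 26.3, 24.7 and 25.9 CPM (log2 0.26, SE 0.07, adjusted p = 0.0036). CDKN3, a phosphatase of CDK2 that peaks in dividing cells, fell by 0.39.

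PAICS, a bifunctional enzyme of purine synthesis and among the abundant transcripts of these cells (chromosome 4, 56435741 to 56464579, plus strand), was at 3417, 3373 and 3401 CPM in vehicle and at 2338, 2414 and 2388 CPM under wortmannin. The fall of 0.51 on the log2 scale (SE 0.04, adjusted p = 8.6e-13) was many times the spread within either group. ADSL, which acts later in the same pathway, fell by 0.39 and PRPS1, which makes its ribose phosphate donor, by 0.34. Of 23 purine, pyrimidine and pentose genes, 11 were lower and 0 higher (median log2 -0.18; 8 to 10 lower with 1 library left out), against 6.52% of all tested genes called lower. Without the expression filter 4 were lower.

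Ribosome biogenesis and MYC-related genes gave 12 lower and 0 higher of 32, against 6.52% and 5.45% of all tested genes. Without Liriopis_high replicate 1 the count of falls was 22. NPM1, a nucleolar chaperone, fell from 1183 ± 47.9 to 918 ± 13.1 CPM (log2 -0.37, adjusted p = 0.00097). NOP2, an rRNA methyltransferase (-0.31), DKC1, the pseudouridine synthase dyskerin (-0.33), and POLR1E, a subunit of RNA polymerase I (-0.34), were called lower in each of the 14 alternatives. Of 20 cytosolic aminoacyl-tRNA synthetases 6 were lower and 0 higher (11 and 1 without Liriopis_high replicate 1, 1 higher without Vehicle replicate 3, and 3 lower without the expression filter), with FARSB (-0.41) for phenylalanine, VARS1 (-0.32) for valine and KARS1 (-0.28) for lysine.

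Glycolysis genes were lower for 13 of 26 members (median log2 -0.20), but for 8 without Vehicle replicate 1, 7 without Wortmannin replicate 1, 8 without Wortmannin replicate 3 and 4 without the expression filter, beside 6.52% of all tested genes called lower. LDHA, lactate dehydrogenase A, was at 1866, 1776 and 1731 CPM in vehicle and at 1382, 1447 and 1456 CPM under wortmannin. PDK1, a kinase that inhibits pyruvate dehydrogenase, fell by 0.46 (SE 0.08, adjusted p = 5.2e-05), and the hexokinase HK1 by 0.24 (SE 0.05, adjusted p = 0.0012). Other targets of hypoxia-inducible factor counted 4 higher and 2 lower of 20, against 5.45% and 6.52% of all tested genes. The falls numbered 1 without Vehicle replicate 2, Vehicle replicate 3 or Wortmannin replicate 1. LOX, a collagen cross-linking oxidase, rose 1.39-fold (log2 0.47, adjusted p = 0.00014), the MYC antagonist MXI1 rose by 0.46, ANGPTL4 by 0.40 and the carbonic anhydrase CA12 by 0.29.

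Of 32 sterol and fatty acid synthesis genes 5 were higher and 1 lower, against 5.45% and 6.52% of all tested genes. There were 2 or 3 rises when any one of the 6 libraries was left out and 3 without the expression filter, 0 falls without Wortmannin replicate 1 and 3 falls without Liriopis_high replicate 1. MSMO1, a demethylating oxidase of cholesterol synthesis, rose by 0.32 (SE 0.05, adjusted p = 2.8e-05). Targets of the stress factor ATF4 were called 5 higher and 5 lower of 27 (8 and 5 without Liriopis_high replicate 1). Its downstream factor DDIT3, known as CHOP, was at 24.0, 23.6 and 20.2 CPM in vehicle and at 15.5, 14.7 and 16.5 CPM under wortmannin (log2 -0.54, SE 0.15, adjusted p = 0.0096). The rises in that list numbered 3 without Vehicle replicate 2, 2 without Vehicle replicate 3 or Wortmannin replicate 1 and 1 without Wortmannin replicate 3, and the falls 3 without Vehicle replicate 1 or Wortmannin replicate 2 and 2 without the expression filter.

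**Figure D4:**
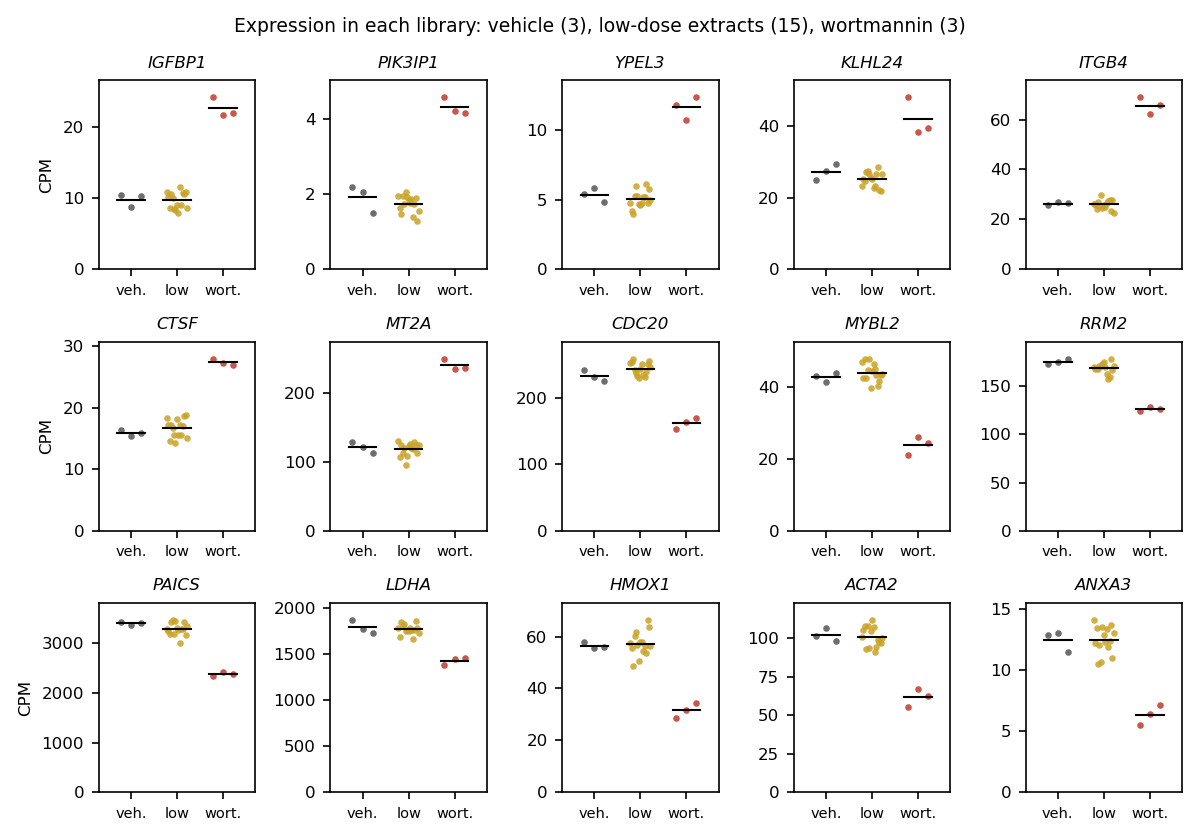
CPM of 15 named genes in each vehicle (grey), low-dose extract (yellow) and wortmannin (red) library, with bars at the group means and linear axes from 0. In every panel the 3 wortmannin points lie apart from the vehicle points and from the 15 low-dose points, above them for the first 7 genes and below them for the other 8.

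The largest changes were ranked among called genes with separate groups and at least 5 CPM in the higher group, passing over clones, antisense transcripts and pseudogenes. VIPR1 and ITGB4 were among the top rises. VIPR1, a receptor for vasoactive intestinal peptide (chromosome 3, 42489299 to 42537573, plus strand), was at 3.14, 2.55 and 2.51 CPM in vehicle and at 7.00, 6.99 and 7.36 CPM under wortmannin, a 2.60-fold rise (log2 1.38, SE 0.16, adjusted p = 3e-08). ITGB4, the integrin beta 4 of hemidesmosomes, was at 25.6, 26.9 and 26.6 CPM and then at 68.9, 62.1 and 65.7 CPM. The wortmannin values of both genes exceeded those of all other 57 libraries.

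JUP, the junction protein plakoglobin, rose 1.96-fold, from 4.16, 3.56 and 4.40 CPM to 8.75, 7.32 and 7.69 CPM (log2 0.97, SE 0.12, adjusted p = 9.3e-08). The ranking also held CACNG7, a regulator of AMPA receptors (log2 1.12), SCN4B, a sodium channel subunit (1.00), and the transmembrane protein TMEM132B (1.08). PBXIP1, which binds PBX homeodomain factors (chromosome 1, 154944076 to 154956123, minus strand), was at 36.7, 33.7 and 37.7 CPM in vehicle and at 69.2, 68.6 and 70.6 CPM under wortmannin. Its SE was small for a change of this size (log2 0.95, SE 0.06, adjusted p = 9.8e-15).

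SNED1, a secreted matrix protein, rose from 33.2 ± 1.74 to 63.4 ± 2.71 CPM (log2 0.93, adjusted p = 2.2e-05). MT2A, a metal-binding metallothionein, went from 129, 122 and 114 CPM to 250, 235 and 237 CPM (log2 0.99, SE 0.20, adjusted p = 0.00046); its close paralogs share sequence, so the split of reads among them is uncertain. VAT1L (1.01), TRAPPC6A, of a vesicle tethering complex (0.92), and CTXN1 (0.90) complete the ranking with LIMS4, which has a near-identical copy. LIMS4 (0.94, adjusted p = 0.022) overlapped the low-dose libraries and lost its call without Vehicle replicate 2, Vehicle replicate 3 or Wortmannin replicate 3.

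Among falls the same ranking was led by ANXA3, a calcium-dependent phospholipid-binding annexin (chromosome 4, 78551519 to 78610451, plus strand). It was at 12.9, 13.0 and 11.5 CPM in vehicle and at 5.53, 6.39 and 7.16 CPM under wortmannin (log2 -0.97, SE 0.11, adjusted p = 1.3e-08). BIRC3, an inhibitor of apoptosis and NF-kB target, fell from 6.03, 5.83 and 6.84 CPM to 3.50, 3.25 and 3.10 CPM (log2 -0.92, SE 0.10, adjusted p = 1e-08). Both groups of wortmannin values were below all 15 low-dose libraries. The 11 called falls of at least 2-fold were all at lower levels than the ranking takes.

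HMOX1, heme oxygenase 1, was at 58.1, 55.5 and 56.0 CPM in vehicle and at 28.8, 31.6 and 34.4 CPM under wortmannin, lower than in any of the other 57 libraries. Other targets of the oxidative stress factor NRF2 that fell were GCLM of glutathione synthesis (-0.41) and OSGIN1 (-0.33). That list counted 5 lower and 0 higher of 25, against 6.52% and 5.45% of all tested genes. The falls numbered 3 without Wortmannin replicate 2 or the expression filter and 9, beside 1 rise, without Liriopis_high replicate 1. RRAD, a small GTPase of the RGK family (-0.86), CXCL12, a chemokine (-0.71), DGKB, a diacylglycerol kinase (-0.77), and the matrix gene LRRC15 (-0.65) were among the remaining large falls.

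The ranked falls also held ACTA2, FLNC and MYPN. ACTA2, smooth muscle actin, was at 101, 107 and 97.9 CPM in vehicle and at 55.0, 67.3 and 62.8 CPM under wortmannin (log2 -0.73, SE 0.07, adjusted p = 3e-10). ACTG2 had a similar log2 fold change of -0.74 at 3.05 ± 0.373 CPM in vehicle, and as actin genes share much of their sequence the split of reads between them is uncertain. MYPN, a sarcomere protein, fell by 0.68, and FLNC, filamin C, fell by 0.63 from 1002 ± 36.9 to 647 ± 12.2 CPM (adjusted p = 0.018), a call lost without Vehicle replicate 3, Wortmannin replicate 1 or Wortmannin replicate 3. The matricellular gene CCN2, a YAP target in the same list as the actins, rose instead (log2 0.51, adjusted p = 0.00047). That list counted 1 higher and 3 lower of 19 (2 and 5 without Liriopis_high replicate 1), against 5.45% and 6.52% of all tested genes. Its contractile members MYL9 (-0.26), CNN1 (-0.45), TAGLN (-0.11) and TPM1 (0.04) were not called.

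Feedback genes of the ERK pathway were higher for 6 of 20 members and lower for 2, against 5.45% and 6.52% of all tested genes. The falls numbered 1 without Vehicle replicate 1 or Wortmannin replicate 1. Without Liriopis_high replicate 1 there were 10 rises and 4 falls. ETV1, an ETS factor, was at 63.6, 66.8 and 65.9 CPM in vehicle and at 117, 108 and 103 CPM under wortmannin, above all other libraries. ETV4 rose 1.63-fold (log2 0.71, adjusted p = 1e-06). The ERK phosphatase DUSP6 rose from 23.4 ± 0.772 to 30.9 ± 0.813 CPM (log2 0.40, adjusted p = 9.4e-05), and SPRY2, a Sprouty inhibitor, rose by 0.27. Immediate early genes gave 1 rise and 2 falls of 22 (3 and 3 without Liriopis_high replicate 1), near the shares over all tested genes. ATF3 was at -0.80 (SE 0.17, adjusted p = 0.00062). Without any one of the 6 libraries 0 rises were left, and 1 fall without Vehicle replicate 2, Vehicle replicate 3 or any one wortmannin library.

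In the integrin and matrix lists more members were called higher than lower, beside 5.45% higher and 6.52% lower of all tested genes. Beyond ITGB4, 6 of 13 other integrin subunits were higher and 0 lower (3 to 5 with 1 library left out, 3 without Vehicle replicate 2, and 6 higher and 1 lower without Liriopis_high replicate 1). ITGA11, a collagen-binding subunit, was at 149, 153 and 155 CPM in vehicle and at 253, 251 and 246 CPM under wortmannin, a step of 1.64-fold that left no overlap with any other library (log2 0.72, SE 0.14, adjusted p = 0.00024). ITGB5 rose by 0.54 and ITGA1 by 0.53. In the hemidesmosome and laminin receptor list, however, only ITGB4 and BCAM (0.37) of 18 were called, or 9 without Liriopis_high replicate 1. ITGA6, the partner of ITGB4, was not called (58.1 ± 3.72 and 57.6 ± 4.69 CPM, log2 -0.01, SE 0.12, adjusted p = 0.97).

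Of 30 collagens and matrix glycoproteins 8 were higher and 0 lower, against 5.45% and 6.52% of all tested genes. Among the 8 were the small proteoglycan DCN (0.42), the fibulin FBLN1 (0.26) and COL8A1 (0.29), a collagen of vessel walls. The rises numbered 3 without Vehicle replicate 3 or Wortmannin replicate 1, 4 without Vehicle replicate 2 or Wortmannin replicate 2 and 5 without Wortmannin replicate 3, and without Liriopis_high replicate 1 there were 13 rises and 2 falls. Of 26 matrix proteases and inhibitors, 10 were higher and 3 lower, with 1 lower without Wortmannin replicate 3. MMP2, gelatinase A, was at 442, 445 and 424 CPM in vehicle and at 574, 625 and 602 CPM under wortmannin (log2 0.46, SE 0.06, adjusted p = 1.7e-07). Its activator MMP14 (0.29) and inhibitor TIMP2 (0.32) rose as well. SERPINE2, protease nexin 1, rose from 638 ± 9.24 to 893 ± 13.6 CPM (log2 0.49, adjusted p = 3e-10).

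TGF-beta and BMP genes gave 8 higher and 1 lower of 22 (median log2 0.28), against 5.45% and 6.52% of all tested genes. Without Liriopis_high replicate 1 the counts were 15 and 1. The rises numbered 5 without Vehicle replicate 1 and 4 without Wortmannin replicate 2, and the fall was lost without Vehicle replicate 1, Vehicle replicate 3, Wortmannin replicate 2 or Wortmannin replicate 3. TGFB1, the ligand, was at 520, 536 and 512 CPM in vehicle and at 652, 731 and 698 CPM under wortmannin (log2 0.41, SE 0.07, adjusted p = 2e-05). The feedback genes SMAD7 and PMEPA1 each rose by 0.32, and LTBP2, a matrix protein related to TGF-beta binding proteins, rose 1.67-fold.

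**Figure D5:**
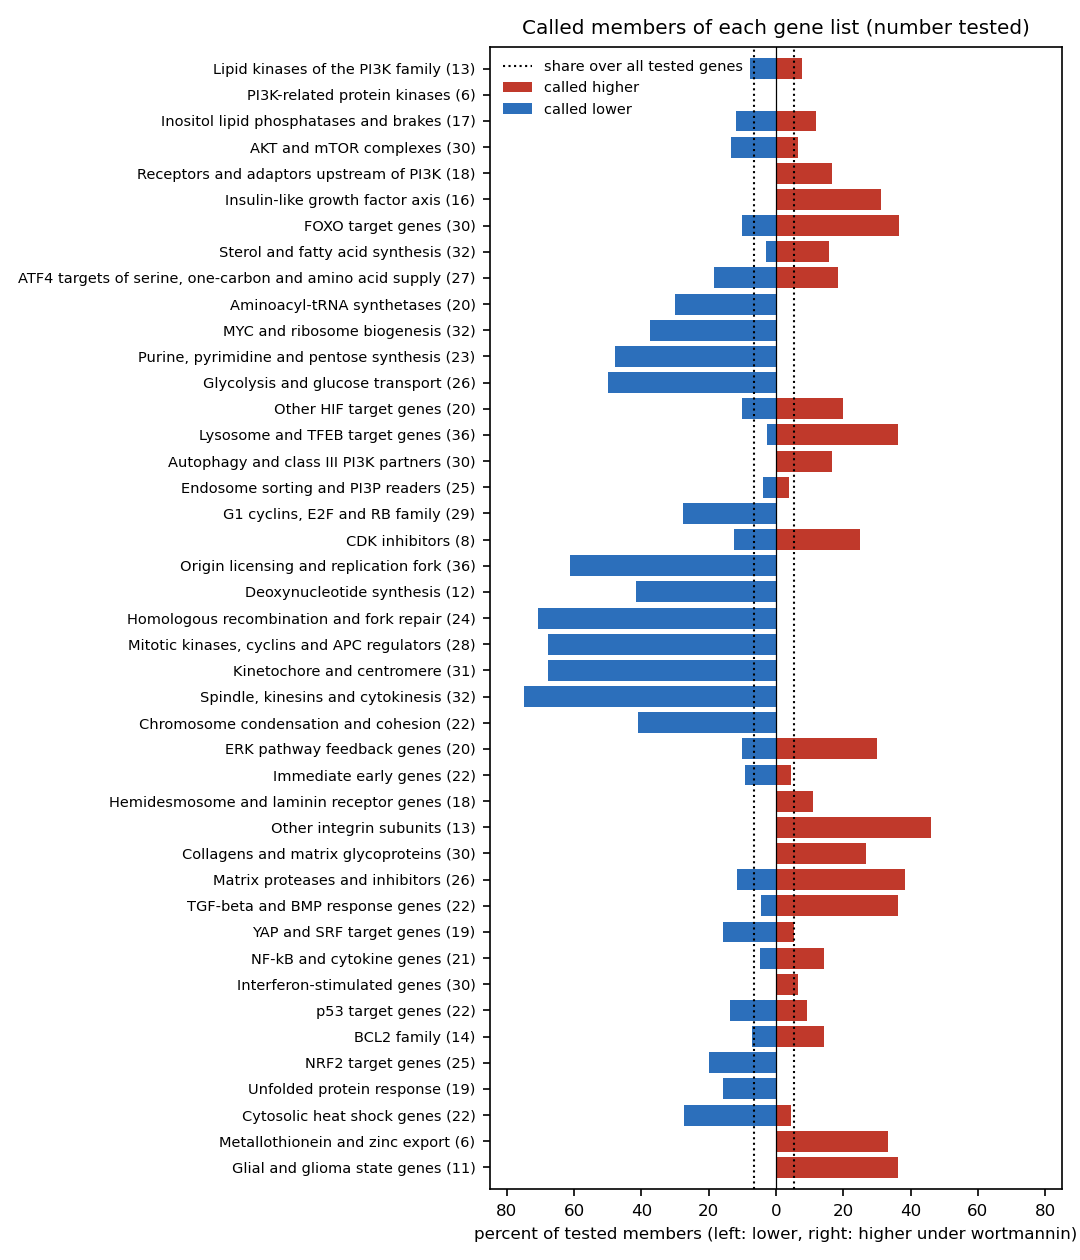
For each gene list other than those of cell type markers, the percentage of tested members called lower (blue, to the left) and higher (red, to the right) under wortmannin, with the number tested in brackets and dotted lines at the shares over all tested genes (6.52% lower, 5.45% higher). The 5 longest bars to the left are those of cell division and fork repair lists, and the longest to the right are other integrin subunits (6 of 13), matrix proteases and inhibitors (10 of 26) and FOXO targets (11 of 30).

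Among stress lists, calls of chaperone genes were mostly falls. In the unfolded protein response list 3 of 19 were lower and 0 higher, against 6.52% of all tested genes called lower (1 without the expression filter or any one library except Vehicle replicate 3, and 6 without Liriopis_high replicate 1), with the chaperone HSPA5 at 3281 ± 84.7 and 2717 ± 110 CPM (log2 -0.27, adjusted p = 0.0014). The list named for cytosolic heat shock genes gave 6 lower and 1 higher of 22. It also holds HSPD1, the mitochondrial chaperonin, which was at -0.35. The count of rises was 0 without any one library except Vehicle replicate 1, and 10 were lower without Liriopis_high replicate 1 and 3 without the expression filter.

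Among 21 NF-kB and cytokine genes 3 were higher and 1 lower, against 5.45% and 6.52% of all tested genes. Without Liriopis_high replicate 1 the counts were 4 and 3. PTGS2, the prostaglandin synthase COX-2, rose from 80.5, 81.4 and 87.6 CPM to 124, 120 and 109 CPM (log2 0.50, SE 0.08, adjusted p = 2.5e-05), the opposite of BIRC3. Of 30 interferon-stimulated genes 2 were higher, with STAT2 at 0.47, and 0 lower, against the same shares of all tested genes. The rises numbered 1 without Vehicle replicate 2, Vehicle replicate 3 or Wortmannin replicate 3. There were 2 falls without Vehicle replicate 2, and 6 rises and 4 falls without Liriopis_high replicate 1.

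Targets of p53 were called 2 higher and 3 lower of 22 (median log2 -0.06), against 5.45% and 6.52% of all tested genes. The rises were CDKN1A, given above, and TP53INP1 (0.52, SE 0.11, adjusted p = 0.00049), and the falls were GADD45A, the exonuclease AEN (-0.27) and PMAIP1, the proapoptotic NOXA (-0.26). Without Vehicle replicate 1 there were 0 falls, 1 without the expression filter and 5 without Liriopis_high replicate 1. In the BCL2 family 2 of 14 were higher and 1, PMAIP1, lower. The proapoptotic gene BMF rose by 0.56 (SE 0.13, adjusted p = 0.0015) and the survival gene MCL1 by 0.15 (adjusted p = 0.026), a call lost without any one library except Wortmannin replicate 3. The fall of PMAIP1 was lost without Vehicle replicate 1 or Wortmannin replicate 3.

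Some markers of the astrocyte programme were near absent in both groups. GFAP had 3 to 6 counts per library, S100B at most 3 and AQP4 and SOX2 at most 1, whereas VIM stood at 4785 ± 41.1 and 4804 ± 211 CPM and CD44 at 2815 ± 115 and 2689 ± 26.9 CPM. Of 22 listed glial and glioma genes 11 were tested, among them the astrocyte genes SLC1A2, GLUL and SOX9. Of these 11, 4 were higher and 0 lower, against 5.45% and 6.52% of all tested genes. The rises held CHI3L1 (log2 0.40, adjusted p = 6.6e-06) and the glutamate transporter SLC1A3 (0.45, adjusted p = 0.0079), both above all other 57 libraries. Of 7 tested neuron markers 2 were higher, SNAP25 (0.38) and SYN1 (0.49), and 1 lower, the neurofilament gene NEFL (-0.45, adjusted p = 0.038), whose call was lost without Vehicle replicate 1, Vehicle replicate 2, Wortmannin replicate 1 or Wortmannin replicate 3. The neuron list summed to 169 to 174 CPM in vehicle and 189 to 196 CPM under wortmannin, with DCX at 0 counts. Of 4 tested oligodendrocyte markers 1 was lower, the tight junction gene CLDN11 (-0.20, adjusted p = 0.035), a call lost without any one library except Vehicle replicate 2. Of 6 tested epithelial markers only KRT8 was called (0.56), the list summing to 750 to 828 and 906 to 934 CPM, with ESRP1 at 0 counts, CDH1 at most at 1 and EPCAM at most at 2. Endothelial and leukocyte markers held 0 calls among 5 and 4 tested, and 1 leukocyte marker was lower without Liriopis_high replicate 1. Fibroblast and pericyte markers gave 4 higher, or 2 without Wortmannin replicate 1, and 2 lower of 11, with FAP at 0.34 and the pericyte proteoglycan CSPG4 at -0.61. The part of these marker genes in the adhesion and matrix results was not tested.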

How the data were processed

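Per the labels' protocols, a directional mRNA kit and an MGI sequencer gave paired reads of 100 bp. The authors deposited RSEM expected counts per gene for 60 libraries in 20 groups of 3. Trim Galore 0.6.5, STAR 2.7.3a, RSEM 1.3.3, FastQC 0.11.9 and GRCh38 are named in the submitters' processing notes. Not given in the sources used here are the annotation release and whether counting used strand, so overlapping and antisense genes cannot be told apart.

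The deposited expected counts were rounded (11.02% were not whole) and fitted with edgeR 4.0.16 in R 4.3.3, with TMM scaling, the expression filter at a minimum count of 10, all 60 libraries and a mean per group (40 residual degrees of freedom, common dispersion 0.00761). Benjamini-Hochberg adjustment ran over all 17792 tested genes, and a call is an adjusted p under 0.05. SE is the log2 fold change over the root of its F statistic. CPM uses TMM-scaled totals. Symbols were found for 56558 identifiers; coordinates and exon lengths are from GENCODE 29, and promoters from RefSeq. On simulated counts (17754 genes) 83 of 100 genes changed 1.5-fold and 92 of 100 changed 2-fold were called, with 12 unchanged genes called. All 60 simulated libraries were drawn from the vehicle means and the fitted spread, and only these genes were changed, in the wortmannin group alone. As no other group differed and no library was an outlier, these counts do not give the error rates of the real comparison.

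The comparison, the 49 gene lists, some of which share members, and the naming rule were chosen with earlier results of these data known. Named genes are the 15 largest rises and falls (called, groups separate, at least 5 CPM in the higher group, clones, antisense transcripts and pseudogenes passed over), the 5 members of each list with the smallest p, and a set of PI3K pathway genes whatever their values. A few further list members were named after their values were seen. Polygalae_low was left out of the low-dose reference because earlier work had called many genes in it. Alternatives were DESeq2 1.42.0, its size factors, no filter, robust spread, a replicate block, the 6 libraries alone, and leaving out libraries. Some members of the lists are counted but not reported here by name.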

Additional observations from a re-analysis of the deposited data

How the results depend on the processing

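The 14 alternatives to wortmannin against vehicle reversed none of the named genes, but some came out weaker or stronger. Of 271 genes named by the rule, 21 to 28 were weaker with 1 of the 6 libraries left out. Without the expression filter 39 were weaker and 1 was stronger, and without Liriopis_high replicate 1 27 were stronger and 0 weaker. The count of 2129 calls became 1180 without an expression filter, 4108 without Liriopis_high replicate 1 and 4083 with the 6 libraries alone, and ran from 1476 to 1622 with 1 library left out, which also lowers the sample number. Wortmannin against the low-dose libraries (3901) gave 6095 without Liriopis_high replicate 1 and 2540 to 3835 with 1 library left out. Vehicle against the low-dose libraries (0) gave 2 with DESeq2, 8 without Liriopis_high replicate 1 and 4 with Polygalae_low added, and 0 with 1 of its own or of the low-dose libraries left out. Same-numbered vehicle and wortmannin libraries did not deviate together over all tested genes (correlations -0.04, -0.01 and 0.01). No label says what the number means, and these correlations cannot exclude a shared plate, day or culture. The replicate block gave 2199 calls in the common fit and 2696 in place of 4083 in the 6 libraries alone. Other scaling (2143), DESeq2 (2386) and robust spread (2118) stayed within 1.5 times of 2129. With a window of 100 bases the share of CHR letters in called rises was -0.13 percentage points from that of all tested promoters, in place of 2.63, while called falls held them in 5.64% against 2.80% of all. The 73 calls of at least 2-fold became 31 with DESeq2, 28 of them shared, and 117 without Liriopis_high replicate 1; the 95 against the low-dose libraries became 175 without an expression filter. The cause of these differences was not tested.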
